A study of Caenorhabditis elegans with 2 samples.

Results

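The ONECUT homeobox genes of Caenorhabditis elegans, ceh-21, ceh-38, ceh-39, ceh-41, ceh-48 and ceh-49, were examined for binding of the Sp-family transcription factor SPTF-1 in embryos. They are 6 of 19985 protein-coding genes in the annotation, and the group was chosen by measured values of the same data, because ceh-39 and ceh-38 had the strongest SPTF-1 regions among homeobox genes. The signals of those regions are therefore given as a description, with no test. All summits inside each gene or in the 2000 bp upstream of it, together called its locus, were collected from every deposited list on the ce11 build.

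Chromatin immunoprecipitation with sequencing (ChIP-seq) had been done on whole organisms of strain OP707, genotype unc-119(tm4063) III; wgIs707. The transgene encodes SPTF-1 with GFP and FLAG at its C-terminus, and all animals carried it together with the unc-119 mutation. Embryos were of mixed stage, pooled male and female, and were collected 2.5 hours after the eggs were bleached. Both samples, biological replicates 1 and 2, belong to 1 group, and the series holds no second condition. The free-text description names an anti-GFP antibody, while the antibody field names sptf-1. The promoter that drives the transgene is not given in the labels, and a signal from whole embryos averages over cell types. Sequencing depth is unknown.

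ONECUT proteins bind DNA through a single CUT domain together with a homeodomain. In C. elegans, ceh-39 is an X signal element: its product helps to count X chromosomes by acting on xol-1, the switch gene of sex determination. Together with the CUT gene ceh-44, ONECUT genes such as ceh-48 and ceh-38 also promote the expression of pan-neuronal genes. Sp-family factors have zinc fingers and, in mammals, are known for binding GC boxes and CACCC-type sequences.

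Sequence from each of the 3 ONECUT peaks is shown first, for the motif matches at ceh-39 and the repeat at ceh-21 that are described further on. They were read from the NCBI RefSeq WBcel235 genome, which is the ce11 build, on the strand of each gene. The ceh-39 sequence runs 100 bp to each side of its summit, chrX:1856254-1856454 on the minus strand, all of it upstream of the gene. Its capitals mark a match to GGGTGG and a match to GGGCGG, both on the strand opposite to the one printed.
ceh-39: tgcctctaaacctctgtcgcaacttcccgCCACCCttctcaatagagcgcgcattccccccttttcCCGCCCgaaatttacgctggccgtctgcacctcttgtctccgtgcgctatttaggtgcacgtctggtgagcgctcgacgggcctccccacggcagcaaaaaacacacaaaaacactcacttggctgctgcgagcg
The ceh-38 sequence is the 130 bp before the first annotated 5' end, chrII:6951396-6951525 on the plus strand, which is the upstream part of the peak and does not reach the summit, so it is not the same kind of window as the others. It has no capitals because no searched motif falls in it.
ceh-38: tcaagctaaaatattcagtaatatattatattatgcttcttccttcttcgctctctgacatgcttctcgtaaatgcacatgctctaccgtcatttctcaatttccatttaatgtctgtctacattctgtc
The ceh-21 sequence runs 100 bp to each side of its summit inside an intron, chrX:1850661-1850861 on the minus strand, and its capitals mark exact copies of a 14 bp unit that recurs through it.
ceh-21: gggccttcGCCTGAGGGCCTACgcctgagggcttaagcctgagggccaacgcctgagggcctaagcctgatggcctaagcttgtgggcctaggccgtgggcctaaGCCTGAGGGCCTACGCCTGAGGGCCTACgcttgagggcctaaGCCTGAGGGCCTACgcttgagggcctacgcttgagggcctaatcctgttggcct

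Of the 6 ONECUT genes, 3 had a summit of the thresholded list in their locus, 1 summit each, against 12.4% of all protein-coding genes. Among the 6308 protein-coding genes whose loci are as short or as long as those of the members, the share was 10.9%. The thresholded list holds the 2430 strongest of 30000 pooled regions, with signal values between 219 and 8190. ceh-39, ceh-38 and ceh-21 had the summits, and ceh-41, ceh-48 and ceh-49 had none. Since the group was chosen from these regions, nothing is read from the difference between the shares.

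ceh-39 had the strongest summit of the group. The gene lies at chrX:1853874-1856172 on the minus strand (WBGene00000460, 5 exons), and its peak at chrX:1856142-1856565 had a pooled signal of 382, rank 766 of the pooled list. The summit, at position 1856354, was 182 bp upstream of the annotated 5' end. It was also 119 bp upstream of T26C11.10, a short non-coding RNA gene that runs away from ceh-39 on the opposite strand. The summit is thus nearer to T26C11.10, and these lists alone do not assign the peak to either gene. In replicate 1 the region had a signal of 224 and rank 709, and in replicate 2 a signal of 149 and rank 1066. Signal values have a scale of their own in each list, so ranks are the comparable quantity. By rank, both replicates placed this peak inside their strongest 2430 regions. The pooled list is of both replicates together, so high ranks in the replicates are not separate support for a thresholded peak.

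ceh-38 came next. Its gene at chrII:6951526-6955409 on the plus strand (WBGene00000459) has 24 annotated transcripts with 11 distinct 5' ends. The peak at chrII:6951396-6951819 had a pooled signal of 375 and rank 789. Its summit, at position 6951608, lay in the 5' untranslated region, 82 bp downstream of the outermost 5' end and 11 bp upstream of the nearest one. The same summit was 308 bp upstream of malt-1, the paracaspase gene that runs away from ceh-38 on the other strand, so these lists alone do not assign the peak to either gene. The region had a signal of 173 and rank 1206 in replicate 1, and a signal of 199 and rank 590 in replicate 2.

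ceh-21, the neighbour of ceh-39, had a peak within the gene and not near its start. The gene lies at chrX:1848779-1852736 on the minus strand (WBGene00000444), and the peak at chrX:1850549-1850972 had a pooled signal of 291 and rank 1289. The summit, at position 1850761, fell in intron 5 of 6, an intron of 707 bp, and 1975 bp downstream of the 5' end. Replicate 1 gave the region a signal of 143 and rank 1848, and replicate 2 a signal of 149 and rank 1051. It was the weakest of the 3 thresholded ONECUT peaks by pooled signal. It was within the strongest 2430 regions of each replicate, but the pooled list is of these same replicates together.

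The order of the 3 peaks was not the same in both replicates. By rank, replicate 1 gave ceh-39, ceh-38 and ceh-21, and replicate 2 gave ceh-38, ceh-21 and ceh-39. The larger rank divided by the smaller was 1.5 for ceh-39, 2.04 for ceh-38 and 1.76 for ceh-21, against a median of 1.42 over the 2414 thresholded peaks with a region in both replicates. A larger ratio than that of ceh-39 was seen in 44.5% of those peaks, than that of ceh-38 in 20.8% and than that of ceh-21 in 30.6%. The order among the 3 ONECUT peaks thus does not hold beyond the spread between replicates.

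**Figure D1:**
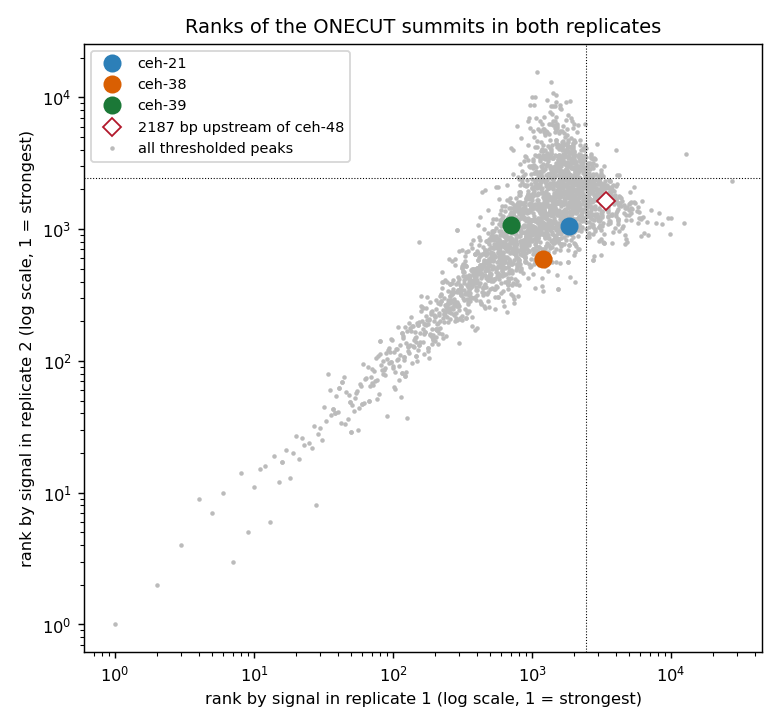
Rank by signal in replicate 1 (x axis) against replicate 2 (y axis), both on log scales with 1 the strongest, for the 2414 thresholded peaks with a region in both replicates (grey), the ONECUT peaks (coloured circles) and the peak 2187 bp upstream of ceh-48 (open diamond); dotted lines mark rank 2430. The ceh-39, ceh-38 and ceh-21 peaks lie inside both lines, and the peak near ceh-48 is outside the line of replicate 1 at rank 3393.

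Summit positions repeated closely. The replicate summits were 28 bp apart at ceh-39, 11 bp at ceh-38 and 4 bp at ceh-21. Over all thresholded peaks the median distance was 18 bp, and 62.6% had replicate summits within 30 bp of each other. The ceh-39 distance is thus above the median of all peaks, and the others are below it.

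ceh-41, ceh-48 and ceh-49 had no thresholded summit, and they differed in what lay close by. ceh-41 (WBGene00000462, chrX:1846608-1848675, minus strand) follows ceh-21 after a gap of 103 bp, and the intronic ceh-21 summit is 2086 bp upstream of its 5' end, 86 bp beyond the limit. ceh-48 (WBGene00015934, chrIV:6812108-6815607, plus strand) had a thresholded summit 2187 bp upstream, 187 bp beyond the limit, in no gene and 46 bp from the non-coding RNA gene C17H12.31. That peak had a pooled signal of 224 and rank 2292, close to the lowest thresholded signal of 219, with rank 3393 in replicate 1 and rank 1634 in replicate 2. For ceh-41 and ceh-48, the absence of a peak therefore depends on where the upstream limit is put.

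ceh-49 (WBGene00017538, chrV:6118333-6120206, minus strand) had no summit in its locus in any list. Its nearest pooled summit was 12493 bp from its 5' end, against a median of 1733 bp over all protein-coding genes, and 84.6% of genes had one nearer. In the replicate lists the nearest summit was 3917 bp away in replicate 1 and 5372 bp in replicate 2. With depth unknown, this says that no region was listed, not that binding was absent.

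ceh-39, ceh-21 and ceh-41 stand in a row on the minus strand of the X chromosome over 9565 bp. The gap between ceh-39 and ceh-21 is 1137 bp and holds T26C11.9, a gene of an uncharacterized protein. The strongest region around this row was not inside a locus. A tRNA gene 2656 bp upstream of ceh-39 held a summit of signal 774, rank 196, with rank 159 in replicate 1, rank 261 in replicate 2 and replicate summits 1 bp apart.

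**Figure D2:**
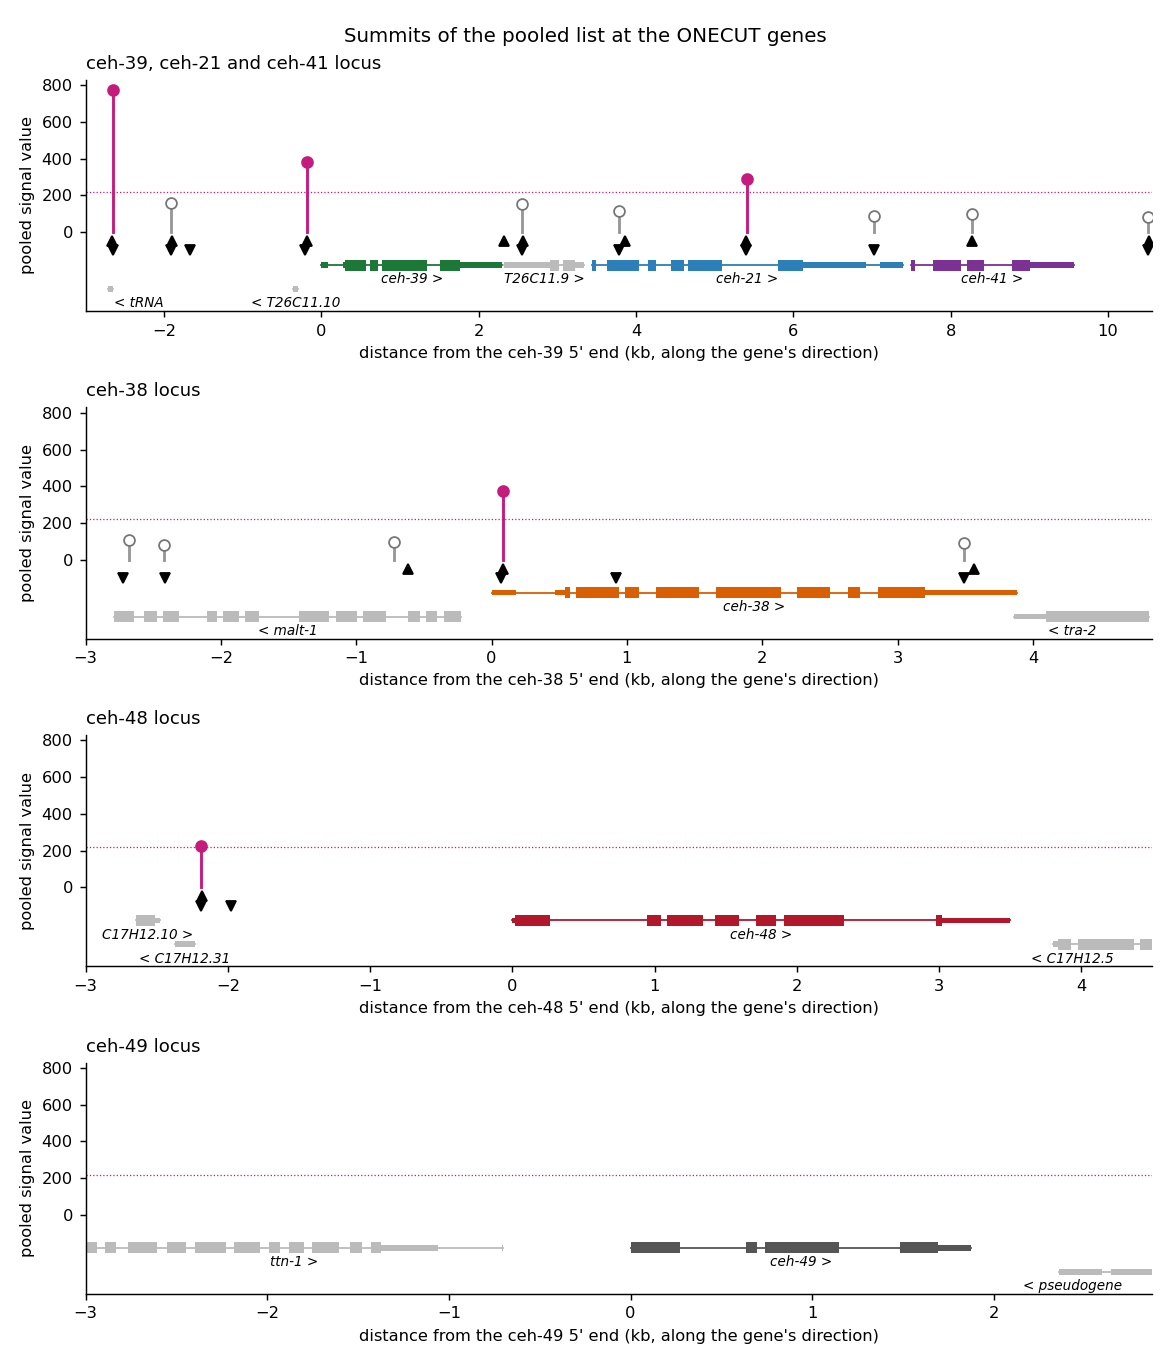
Pooled signal value (y axis) of each pooled summit against distance in kb from the 5' end of ceh-39, ceh-38, ceh-48 and ceh-49 (x axis, along each gene); filled stems are thresholded summits, open stems lie below the threshold at 219 (dotted line), upward triangles are replicate 1 summits, downward triangles replicate 2 summits, and tall boxes are coding exons. Thresholded stems stand just upstream of ceh-39 (382), at the start of ceh-38 (375), inside ceh-21 (291), in the tRNA gene upstream of ceh-39 (774) and upstream of ceh-48 (224), and none is drawn at ceh-49.

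Below the threshold, the ONECUT loci held further, weaker summits. Counted over the whole pooled list, thresholded summits included, 4 of the 6 loci held a summit, against 52.7% of all protein-coding genes. In the whole list of replicate 1 it was 4 of 6, against 54.4%, and in that of replicate 2 it was 5 of 6, against 56%. With a summit in most gene loci of the genome, nothing is read from these counts.

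The loci held 10 distinct pooled summits, of which 7 were below the threshold, with ranks between 5627 and 21366. A region in both replicates matched 4 of these 7, or 57.1%, against 66.1% of all pooled regions below the threshold. The strongest was 1916 bp upstream of ceh-39 with signal 157 and rank 5627, and the ceh-21 peak of signal 291 was the weakest above the threshold. The next, of signal 152 and rank 6088, was 884 bp upstream of ceh-21 and 36 bp from the 5' end of T26C11.9. No ONECUT summit therefore lay close to the threshold on either side.

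The remaining weak summits lay in ceh-21, ceh-38 and ceh-41. A coding exon of ceh-21 held one of signal 113, found in both replicates with summits 68 bp apart. An intron of ceh-21 held the weakest, at rank 21366, that is also 473 bp upstream of ceh-41, with a region in replicate 2 alone. In ceh-41 a coding exon held one of signal 99.8, with a region in replicate 1 alone. At ceh-38 there was one of signal 97.2 in the upstream 2000 bp, inside malt-1, with a region in replicate 1 alone, and one of signal 91.8 in the 3' untranslated region, found in both replicates. The ceh-48 locus had a single region, in replicate 2 alone, of signal 45.4 and rank 17942.

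Per length, the ONECUT loci together held 1.12 thresholded summits per 10 kb, against 0.241 over the nuclear genome. In the pooled list the densities were 3.73 per 10 kb in the ONECUT loci and 2.99 in the genome. Both pairs of values include the peaks that the genes were chosen for, since the pooled list contains the thresholded one.

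The 3 thresholded peaks differed in base composition. Within 100 bp of the summit, GC made up 58.2% of bases at ceh-39, 48.3% at ceh-38 and 65.2% at ceh-21. The median was 46.8% over the 2419 nuclear summit windows and 32.8% over windows of the same length before the 5' ends of 19973 genes, called promoters here. A lower GC content than at ceh-21 was found in 98.8% of summit windows, than at ceh-39 in 94.2% and than at ceh-38 in 57.2%. The ceh-21 and ceh-39 windows are thus richer in GC than most SPTF-1 peaks, and ceh-38 is near the middle.

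Motif matches were searched on both strands in the same windows, with distances counted from the summit to the nearest base of the match. GGGCGG, the GC box, was found in the ceh-39 window, 29 bp from the summit at chrX:1856383-1856388, and in neither of the others. It occurred in 14.5% of all summit windows and in 6.01% of promoters. GGGTGG was also found at ceh-39, 66 bp from the summit at chrX:1856420-1856425, and occurred in 10.9% of summit windows and 4.09% of promoters. CACCC, which overlaps that GGGTGG match, occurred in 29.3% of summit windows and 12.9% of promoters. Both matches are in capitals in the ceh-39 sequence above.

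Of the ONECUT-type motifs, ATCGAT was found only at ceh-38, 72 bp downstream of the summit at chrII:6951680-6951685, and ATTGAT in none of the 3 windows. ATCGAT occurred in 8.39% of summit windows and 8.47% of promoters, and ATTGAT in 10.2% of summit windows and 22.3% of promoters. The ceh-21 window held none of the 5 motifs. A match describes letters in the window and is not a measured binding site.

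The ceh-21 summit lies in a tandem repeat. In its window, 81.8% of bases equalled the base 14 bp further on, against 35.6% at ceh-38 and 38.2% at ceh-39 at their own best periods between 2 and 60 bp. The median was 36.8% over summit windows and 37.5% over promoters. Only 21 of 2419 summit windows, 0.868%, were at least as repetitive as that of ceh-21, as were 0.02% of promoters. The ceh-39 and ceh-38 windows were as repetitive as a usual window.

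The repeated unit of ceh-21, gcctgagggcctac on the strand of the gene, had 4 exact copies in the genome, all 4 in this intron between chrX:1850701-1850853. With 1 mismatch allowed, 7 of 21 copies in the genome were in the intron, and with 2 mismatches 12 of 218. The unit was chosen after the sequence had been seen. Whether the placing of reads within the repeat affects the signal of this peak was not tested.

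**Figure D3:**
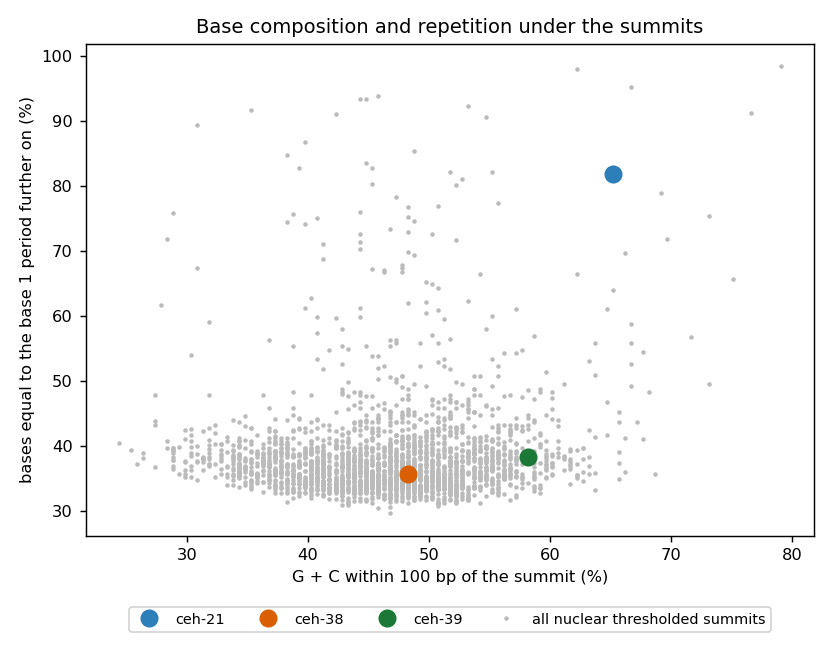
GC content (x axis, percent) against tandem repetition (y axis, percent of bases equal to the base 1 period on) within 100 bp of each nuclear thresholded summit (grey), with the ONECUT summits coloured. The ceh-21 window stands apart at 65.2% GC and 81.8% repetition, while ceh-39 (58.2% and 38.2%) and ceh-38 (48.3% and 35.6%) lie within the main cloud.

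A list of 73 homeobox genes outside the ONECUT group was examined, and the shares and order below hold among the listed genes. Of these, 12 had a thresholded summit in their locus, 16.4%, beside 3 of 6 ONECUT genes and 12.4% of all protein-coding genes. The median signal of the strongest thresholded summit was 375 for the 3 ONECUT genes with one. It was 276 for the 12 other homeobox genes and 326 for all genes with one. The ONECUT median includes the ceh-39 and ceh-38 peaks that the group was chosen for, so nothing is read from this difference. ONECUT loci had a median length of 4899 bp, those of the other homeobox genes 5597 bp and all loci 4026 bp. By strongest signal, ceh-44 followed ceh-38, with signal 366, rank 831 and an intronic summit 4768 bp from its nearest 5' end. Its values were read from the gene model with the same WormBase ID, which the Ensembl annotation names cone-1 and RefSeq names ceh-44. Then came unc-62, a Meis-type gene, with 330, ceh-20, a Pbx-type gene, with 314, and lin-11, a LIM homeobox gene, with 295. The order of the leading genes is the one that the group was chosen for.

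**Figure D4:**
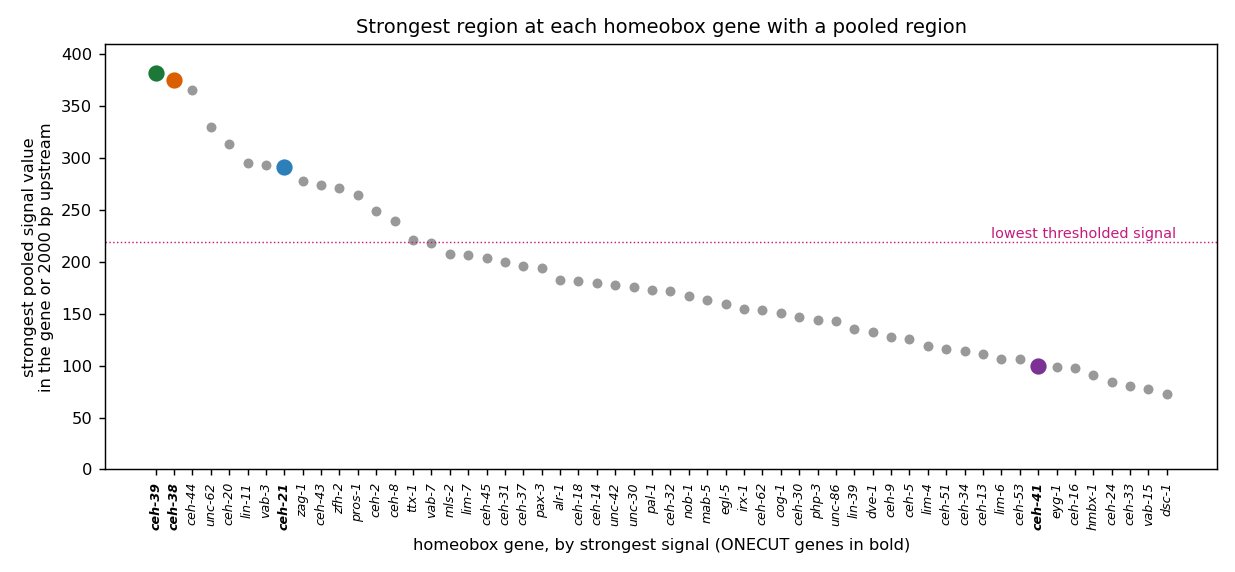
Strongest pooled signal value (y axis) in the gene or the 2000 bp upstream for each listed homeobox gene with a pooled region (x axis, in order of signal), with ONECUT genes in bold and colour and a dotted line at the lowest thresholded signal, 219. ceh-39 (382) and ceh-38 (375) come first among the listed genes, ceh-21 (291) also lies above the line, and ceh-41 (99.8) lies below it.

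The CUT gene ceh-44 had rank 571 in replicate 1 and rank 2098 in replicate 2. The other CUT-type gene listed, dve-1, had no thresholded summit and a pooled signal of 132. Of these CUT-type genes, 1 of 2 thus had a thresholded summit, against 12.4% of all protein-coding genes, in loci with a median length of 13293 bp, against 4026 bp for all genes.

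The sex determination genes that ceh-39 acts among were examined as a list, of which 5 of the 15 genes matched to the annotation had a thresholded summit, 33.3%, against 12.4% of all protein-coding genes. These were sea-2, an autosomal signal element, with signal 315, sex-1, a nuclear receptor that is an X signal element, with 244, fem-1, which promotes male fate, with 237, sdc-1, a dosage compensation gene, with 237, and fox-1, an RNA-binding X signal element, with 237. fox-1, xol-1 and tra-2 fall outside the rule for naming genes, and fox-1 was named after its values were seen. xol-1, the switch gene on which ceh-39 acts, had no summit in any list. tra-2, whose gene overlaps the 3' end of ceh-38, had a pooled signal of 147 below the threshold. These loci are long, with a median of 8772 bp against 4026 bp for all genes, so they offer more room for a summit.

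In the pan-neuronal list, 10 of 26 genes had a thresholded summit, 38.5%, against 12.4% of all protein-coding genes. These loci are also long, with a median of 8110 bp against 4026 bp for all genes, and so offer more room for a summit. The strongest summit of the list was in unc-104, the kinesin that carries synaptic vesicle precursors, with signal 710 and rank 228. It was followed by syd-2, a liprin of the presynaptic active zone, with 536, nsf-1, the ATPase that takes SNARE complexes apart, with 454, and unc-64, a syntaxin, with 362. The first 3 of these signals are above that of ceh-39, and the signal of unc-64 is below that of ceh-38. The unc-104 summit was intronic, 5713 bp from its nearest 5' end and 1348 bp from a tRNA gene. The syd-2 summit was 472 bp upstream of that gene and inside the non-coding RNA gene F59F5.9.

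Replicate ranks were compared among 2458 protein-coding genes with a thresholded summit and a region in both replicates. The genes closest to ceh-39 were ceeh-1, an epoxide hydrolase gene, and zip-2, a bZIP factor gene. They share 1 peak of signal 372, with ranks 692 and 1056 in replicates 1 and 2 and a distance of 0.038 on the log2 rank scale. Y47G6A.32, at a distance of 0.04, came next. For ceh-38 the closest was malt-1, which has the same peak, and then Y75B8A.23 and tim-1, a Timeless family gene, which share a peak of signal 358 at a distance of 0.09. This likeness is in rank over 2 replicates and in nothing else.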

How the data were processed

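SPTF-1 ChIP-seq regions of 2 replicates in 1 group were used, with replicate numbers from the labels. For each replicate and for both pooled, the authors deposited 30000 regions, plus a thresholded list, which per the deposited file listings is the IDR (irreproducible discovery rate) optimal set, with regions called against a control. In the layout of the deposited files, signal value, significance and summit are given per region. The deposited −log10 q values are tied at their highest in 1725 of 2430 thresholded regions, so regions were ranked by the deposited signal. The aligner, the caller, the cutoff and the read depth are not given in the sources used here. The lists on ce10 were left out.

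Gene positions came from an Ensembl annotation of the WBcel235 (ce11) assembly. A gene was counted where a summit fell in it or in the 2000 bp upstream. Replicate regions were matched by an overlap of at least 1 base. Motif, GC and repeat shares were computed within 100 bp of summits on nuclear chromosomes. Python 3.11.15, NumPy 2.4.6, pandas 2.3.3 and matplotlib 3.10.9 were used, and the counting was tested on simulated data. No significance test was made, since the genes were chosen from these regions and there is 1 group.

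The members and lists were chosen with earlier results of these data known. Named genes were all members, up to 4 genes of each list with the strongest thresholded summit, genes with a 5' end within 2000 bp of a member's summit, non-coding genes within 200 bp, and the 3 genes closest in replicate ranks to ceh-39 and to ceh-38. Outside this rule, the listed genes fox-1, xol-1, tra-2 and dve-1 were also named. The gene sex-2 was listed but not matched to the annotation. ceh-44 was matched by its WormBase ID to the gene model named cone-1 in that annotation. Alternatives were other upstream limits, nearest-gene assignment, other parts of the lists, single replicates and other window sizes.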

Additional observations from a re-analysis of the deposited data

How the results depend on the processing

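The count of 3 ONECUT genes with a thresholded summit stayed at 3 with 500 or 1000 bp upstream, with each summit given to the nearest 5' end only, and with either replicate left out (3 to 3). The share of all protein-coding genes was 8.6% with 500 bp and 10.2% with 1000 bp. It was 12.7% without replicate 1 and 12.3% without replicate 2. For the nearest 5' end assignment this share was not computed, so nothing is read from that count. With 5000 bp upstream the ONECUT count was 5, by ceh-41 and ceh-48, against 17.5% of all genes, and the number of summits was also 5. The count was 2 among the 1215 strongest peaks, against 7.13% of all protein-coding genes. It was also 2 without peaks in tandem repeats, against 12.2%, an alternative chosen after seeing the data. Each of these leaves out ceh-21. In the whole pooled list it was 4, against 52.7% of all protein-coding genes, and the ONECUT loci held 10 summits. The 12 other listed homeobox genes became 3 of 73 among the 1215 strongest peaks, against 7.13% of all protein-coding genes. In the whole pooled list they became 52 of 73, 71.2% against 52.7%, and they were 11 to 13 with a replicate left out. Within 50 bp of the summit, GGGTGG and CACCC, and also ATCGAT, were in 0 of the 3 ONECUT windows, and within 150 bp ATTGAT was in 1, ceh-38, by construction of the narrower and wider windows. The other 30 of 39 alternatives stayed within 1.5 times the reported value. No paired analysis was possible because there is only 1 group. Limits are the unknown depth, 2 replicates, a list cut at a rank, control values that were not used here and the repeat under the ceh-21 summit.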
